A study of Mus musculus with 87 samples.

Results

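The genes described here are 7 factors that clear maternal mRNA from the mouse egg and early embryo: *Btg4*, *Cnot6l*, *Cnot7*, *Pabpn1l*, *Zfp36l2*, *Tut4* and *Tut7*. They were chosen by symbol, and all 7 were found among the 55487 gene rows of every count table. The study asked whether the homeobox genes *Obox4* and *Dux* stand in for each other in zygotic genome activation, and it measured RNA in B6D2F1 mouse embryos and in mouse embryonic stem cells (mESCs). In the 2C-embryo experiment, 5 groups of 2 libraries (30 embryos each, middle 2C stage) had received antisense oligonucleotides (ASO): a scramble ASO at 40 µM, the *Obox4* ASO at 20 µM (*Obox4* knockdown, KD), the *Dux* ASO at 20 µM (*Dux* KD), both (40 µM in all, double KD), or both with codon-optimized *Obox4* mRNA at 100 ng/µL (rescue). Scramble and double KD embryos were also sequenced as morulae, with 2 libraries a group. Single blastomeres came from 2C-embryos that all lacked *Dux* and carried *Obox4* as wild type (WT), heterozygous (Het) or knockout (KO), 2 libraries a genotype. Their genotype was read from the sister blastomere, and the KO removes the *Obox4* cluster but not the solitary copy *Obox4-ps33*. The mESC experiments were 129/Ola cells with a doxycycline-driven TRE-3xFLAG-*Obox4* transgene at 0 h, 12 h and 48 h of induction, and cells given pladienolide B (PlaB, a splicing inhibitor) that were WT, *Obox4* KO, *Dux* KO or double KO, with 3 libraries a group in both. Binding to chromatin was mapped in mESCs by CUT&RUN, described with the peaks. The cells carried a TRE-3xFLAG-*Obox4* or TRE-3xFLAG-*Dux* transgene, or, for histone marks, were WT or *Obox4* KO, each untreated or given PlaB.

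A fully grown mouse oocyte stores mRNA that must be removed once the embryo transcribes its own genome. Most of this removal starts at the poly(A) tail. The CCR4-NOT complex shortens the tail through its deadenylases, among them CNOT6L and CNOT7. BTG4, a member of the BTG and TOB family that is made in oocytes and early embryos, brings CCR4-NOT to maternal mRNA, and PABPN1L is a poly(A)-tail-binding protein of the egg that works with BTG4. ZFP36L2 binds AU-rich elements and recruits CCR4-NOT to the mRNAs that carry them. TUT4 and TUT7 add uridines to shortened tails, which marks the mRNA for decay. Loss of *Btg4*, *Cnot6l*, *Pabpn1l* or *Zfp36l2* in female mice is known to impair the clearance of maternal mRNA.

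Sequences are shown for the members at which OBOX4 was found on the chromatin of mESCs (*Zfp36l2*, *Tut7* and *Tut4*, described with the peaks) and for *Btg4* and *Pabpn1l*, the egg-restricted members, which had no such peak. The peak stretches were read from GRCm38.p6 at the positions of the deposited peaks, and the promoters (250 bases before to 50 after the start) are RefSeq's on the same build, where 5 of the 7 members had an entry (all but *Cnot7* and *Zfp36l2*). Both strands were searched for GGATTA (reverse TAATCC) and for CTGGGAT (reverse ATCCCAG), the latter taken from the motif the study's text gives for OBOX4, and matches are in capitals. The *Tut7* peak holds 1 GGATTA, the *Tut4* promoter printed holds 1 ATCCCAG, and the other 3 stretches hold neither. The start of that *Tut4* promoter lies 582 bases downstream of the start of the gene row. Another RefSeq promoter of *Tut4* (chr4:108459160-108459459), not printed, holds neither motif. The 201-base window around the *Tut4* OBOX4 summit also holds neither, while the whole *Tut4* peak holds 1 CTGGGAT on either strand. GGATTA was present in 7.06% of all 32851 promoters and CTGGGAT in 6.18%, and in 14.4% and 10.1% of the 201-base windows around 27713 OBOX4 summits.
Zfp36l2 OBOX4 peak window, chr17:84188040-84188240, + strand: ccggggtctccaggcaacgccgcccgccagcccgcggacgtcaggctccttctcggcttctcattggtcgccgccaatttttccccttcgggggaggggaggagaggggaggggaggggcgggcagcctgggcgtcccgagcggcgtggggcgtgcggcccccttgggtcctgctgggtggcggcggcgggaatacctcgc
Tut7 OBOX4 peak, chr13:59823321-59823512, + strand: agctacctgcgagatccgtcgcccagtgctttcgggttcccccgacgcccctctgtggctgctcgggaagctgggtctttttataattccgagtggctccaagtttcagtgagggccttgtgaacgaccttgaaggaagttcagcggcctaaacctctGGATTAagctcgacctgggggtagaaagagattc
Tut4 promoter, chr4:108459758-108460057, + strand: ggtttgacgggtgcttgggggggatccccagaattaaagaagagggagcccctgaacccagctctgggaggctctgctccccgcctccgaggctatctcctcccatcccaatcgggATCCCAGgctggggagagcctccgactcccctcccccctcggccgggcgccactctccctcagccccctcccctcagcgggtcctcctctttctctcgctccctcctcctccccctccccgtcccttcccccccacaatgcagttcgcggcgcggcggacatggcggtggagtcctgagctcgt
Btg4 promoter, chr9:51115751-51116050, + strand: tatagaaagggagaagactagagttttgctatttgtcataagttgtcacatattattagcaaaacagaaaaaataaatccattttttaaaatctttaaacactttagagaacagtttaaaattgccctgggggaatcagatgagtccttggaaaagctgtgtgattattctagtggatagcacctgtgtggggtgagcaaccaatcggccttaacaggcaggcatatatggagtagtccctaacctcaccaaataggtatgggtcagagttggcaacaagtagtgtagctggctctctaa
Pabpn1l promoter, chr8:122622686-122622985, - strand: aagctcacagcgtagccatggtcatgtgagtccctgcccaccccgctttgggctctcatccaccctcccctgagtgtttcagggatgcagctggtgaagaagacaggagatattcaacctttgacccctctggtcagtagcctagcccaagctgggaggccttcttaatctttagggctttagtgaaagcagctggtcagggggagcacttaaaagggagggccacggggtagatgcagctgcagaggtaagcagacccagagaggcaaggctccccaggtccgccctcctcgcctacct
The GC content was 39.0% in the *Btg4* promoter and 57.7% in that of *Pabpn1l*, against 68.3% in the *Tut4* promoter shown and 74.1% in the *Zfp36l2* peak window.

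Libraries held 26148176 to 69461986 gene counts in 2C-embryos, 53573946 to 104864947 in morulae, 26447955 to 40005047 in blastomeres, 22470332 to 31504967 in the induction series and 14283083 to 48837123 in the PlaB series. In 2C-embryos the 38 *Obox4* copies other than *Obox4-ps35* summed to 12.2 to 17.6 CPM (counts-per-million units, after scaling) with scramble ASO and to 3.04 to 3.94 CPM in *Obox4* KD, whereas *Obox4-ps35*, singled out after its values were seen, stood at 56.2 to 58.4 and 64.0 to 80.4 CPM. *Duxf3* stood at 6.49 to 7.69 CPM with scramble ASO and at 1.93 to 3.66 CPM in *Dux* KD. The 38 *Obox4* copies were low in *Dux* KD as well (3.01 to 5.00 CPM), and *Obox4-ps35* stood there at 44.6 to 47.4 CPM. Except in blastomeres, reads that map to several places were discarded, so *Obox4* sums leave out reads shared by copies. In blastomeres, the first library labelled *Obox4* KO held 8.92 CPM of the copies other than *Obox4-ps35*, above the WT libraries (0.993 to 2.31 CPM), so these libraries are named by their label throughout. The second double KD morula library stood apart, with a Spearman correlation of 0.885 to 0.919 to the other morulae against 0.947 to 0.977 among them. In the PlaB series, the copies other than *Obox4-ps35* summed to 12.2 to 12.9 CPM in WT and to 2.34 to 8.00 CPM in *Obox4* KO. They summed to 0.0433 to 0.0824 CPM in *Dux* KO and 0 to 0.186 CPM in double KO. *Dux* KO cells thus held less *Obox4* RNA than *Obox4* KO cells did. *Duxf3* had 0 counts in *Dux* KO and double KO. Library 3 of *Obox4* KO (0.957 to 0.958) and library 3 of double KO (0.959 to 0.962) in the PlaB series stood apart from their own group as well. In the induction series the libraries split across time points: the first 12 h library correlated better with libraries 2 and 3 of 48 h (0.9857 and 0.9885) than with its own group (0.9751 and 0.9772), and the other 12 h libraries correlated best with each other and with the first 48 h library (0.9865 to 0.9888). The study's methods describe the 2C libraries as independent replicates. For libraries whose labels and methods do not state their source, p-values measure only the spread between libraries, which may be technical.

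In scramble 2C-embryos the members covered a wide range of levels, and the egg-restricted adaptor led. Per kilobase of exon, *Btg4* stood at 1204 to 1262 CPM, followed by the deadenylases *Cnot7* at 118 to 125 CPM per kb and *Cnot6l* at 116 to 120 CPM per kb, which overlapped. *Pabpn1l* (9.54 CPM per kb in both libraries) and *Zfp36l2* (8.99 to 10.7 CPM per kb) also overlapped, and the uridylyltransferases were lowest, with *Tut7* at 2.77 to 3.13 and *Tut4* at 1.37 to 1.94 CPM per kb. The 7 members together took 0.345% to 0.491% of the gene counts of a 2C library, 0.274% to 0.401% of a blastomere library and 0.0271% to 0.0477% of a morula library.

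**Figure D1:**
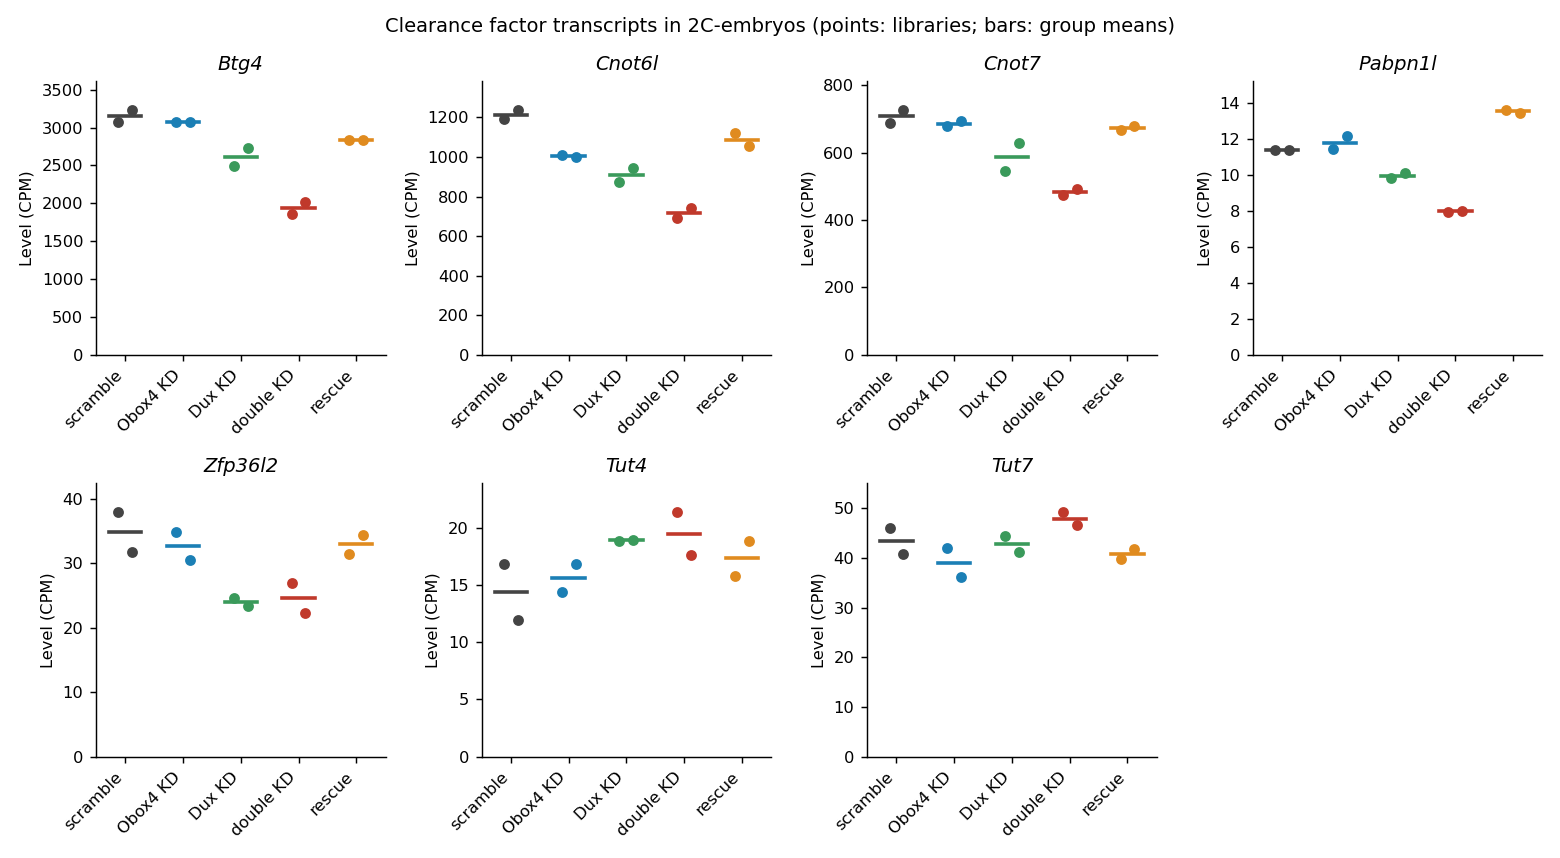
CPM (linear axes from 0) of each member in the 10 libraries of 2C-embryos, by group; points are libraries and bars are group means (n = 2). Btg4, Cnot6l, Cnot7 and Pabpn1l are lowest in both double KD libraries, and Tut4 and Tut7 are not.

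The first comparison asked whether loss of both *Obox4* and *Dux* changed these factors in 2C-embryos. Genes were tested with edgeR's quasi-likelihood test, and "called" stands for a p of at most 0.01 after Benjamini-Hochberg adjustment together with at least a 2-fold difference, while "fell" or "rose" also covers genes at an adjusted p of at most 0.05 with no minimum fold. In double KD against scramble, 5 members fell (*Btg4*, *Cnot6l*, *Cnot7*, *Pabpn1l* and *Zfp36l2*), 1 rose (*Tut4*) and *Tut7* did not pass. Of the 23085 genes tested, 17.6% were lower and 19.4% were higher by the same threshold. None of the 7 reached the 2-fold call with edgeR or DESeq2, which 11.6% of genes did with edgeR. The median log2 difference of the 7 was -0.513, beside 0.0328 over all genes tested.

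BTG4 is the adaptor through which CCR4-NOT reaches maternal mRNA. *Btg4* was measured at 3077 and 3226 CPM with scramble ASO, 3070 and 3079 CPM in *Obox4* KD, 2496 and 2726 CPM in *Dux* KD, 1858 and 2020 CPM in double KD, and 2838 and 2840 CPM in rescue. Both double KD libraries lay below every other library, the *Dux* KD libraries came next, and the *Obox4* KD values overlapped scramble. Double KD left 61.5% of the scramble level (log2 difference -0.70, 95% interval -0.82 to -0.58, adjusted p = 4.69e-08), and *Dux* KD left 82.9% (-0.27, adjusted p = 0.00243). In *Obox4* KD the difference was -0.04 (95% interval -0.15 to 0.08, adjusted p = 0.801).

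CNOT6L is a catalytic deadenylase of CCR4-NOT. *Cnot6l* stood at 1191 and 1235 CPM with scramble ASO, 1012 and 1002 CPM in *Obox4* KD, 872 and 944 CPM in *Dux* KD, 692 and 745 CPM in double KD, and 1119 and 1053 CPM in rescue. The 5 groups did not overlap, in the order scramble, rescue, *Obox4* KD, *Dux* KD and double KD. It was the single member that fell in *Obox4* KD, to 83.0% of scramble (log2 difference -0.27, adjusted p = 0.0136), where 2.84% of genes were lower by this threshold and 0.412% were called. Without the second scramble library the adjusted p of *Cnot6l* in *Obox4* KD was 0.140. It fell to 74.8% in *Dux* KD (adjusted p = 0.000148) and to 59.2% in double KD (log2 difference -0.76, 95% interval -0.88 to -0.63, adjusted p = 5.37e-08).

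CNOT7, the other catalytic subunit followed here, was also lowest in double KD. *Cnot7* stood at 689 and 725 CPM with scramble ASO, 678 and 694 CPM in *Obox4* KD, 545 and 628 CPM in *Dux* KD, 473 and 491 CPM in double KD, and 668 and 680 CPM in rescue. Both *Dux* KD and both double KD libraries lay below scramble, while *Obox4* KD overlapped it. *Cnot7* fell to 68.2% in double KD (log2 difference -0.55, SE 0.067, adjusted p = 5.26e-06) and to 83.0% in *Dux* KD (adjusted p = 0.00902, but 0.185 without the first *Dux* KD library).

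*Pabpn1l*, which encodes the tail-binding partner of BTG4, was measured at 11.4 CPM in both scramble libraries, 11.4 and 12.1 CPM in *Obox4* KD, 9.83 and 10.1 CPM in *Dux* KD, 7.95 and 8.00 CPM in double KD, and 13.6 and 13.5 CPM in rescue. Its double KD libraries were the lowest and its rescue libraries the highest of the 10. It fell to 70.1% of scramble in double KD (log2 difference -0.51, SE 0.13, adjusted p = 0.00539) and did not pass in *Dux* KD (-0.19, adjusted p = 0.349). *Zfp36l2*, the AU-rich-element binder, stood at 37.9 and 31.7 CPM with scramble ASO, 34.7 and 30.5 CPM in *Obox4* KD, 24.6 and 23.4 CPM in *Dux* KD, 26.9 and 22.3 CPM in double KD, and 31.4 and 34.4 CPM in rescue. All 4 libraries with *Dux* ASO and no *Obox4* mRNA lay below the other 6, and the *Dux* KD and double KD values overlapped. *Zfp36l2* fell to 68.8% in *Dux* KD (log2 difference -0.54, SE 0.12, adjusted p = 0.00512) and to 70.7% in double KD (-0.50, adjusted p = 0.00367), and without the first scramble library these adjusted p-values were 0.0942 and 0.077.

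The uridylyltransferases did not share the decrease. *Tut4* was at 16.9 and 11.9 CPM with scramble ASO, 14.4 and 16.8 CPM in *Obox4* KD, 18.9 CPM in both *Dux* KD libraries, 21.4 and 17.6 CPM in double KD, and 15.8 and 18.8 CPM in rescue. The scramble libraries differed by more than the gap to the lower double KD library, and the rise in double KD (log2 difference 0.43, adjusted p = 0.0405) had an adjusted p of 0.446 without the second scramble library. *Tut7* was at 46.1 and 40.8 CPM with scramble ASO, 41.9 and 36.2 CPM in *Obox4* KD, 44.4 and 41.2 CPM in *Dux* KD, 49.2 and 46.6 CPM in double KD, and 39.8 and 41.8 CPM in rescue. Its double KD libraries were the highest of the 10, with a log2 difference of 0.14 to scramble (95% interval -0.07 to 0.36, adjusted p = 0.306).

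In *Dux* KD alone 4 of the 7 members fell (*Btg4*, *Cnot6l*, *Cnot7* and *Zfp36l2*), where 9.45% of genes were lower at an adjusted p of at most 0.05 and 4.30% were called. Without the first *Dux* KD library the adjusted p of *Btg4* was 0.0524. With library totals in place of TMM scaling (a choice made after seeing the data) the adjusted p in *Dux* KD was 0.190 for *Btg4* and 0.323 for *Cnot7*, and in double KD 0.146 for *Pabpn1l* and 0.118 for *Zfp36l2*, all still lower than scramble, while *Tut7* in double KD was higher by 0.39 (adjusted p = 0.005). Double KD was also compared with each single KD. Against *Dux* KD, *Btg4* (log2 difference -0.43, adjusted p = 0.000127), *Cnot6l* (-0.34, adjusted p = 0.00165) and *Cnot7* (-0.28, adjusted p = 0.0106) fell further, 3 of 7 members where 5.33% of genes were lower and 0.754% were called. Without the first double KD library the adjusted p was 0.0686 for *Cnot6l* and 0.175 for *Cnot7*. *Zfp36l2* differed by 0.04 between double KD and *Dux* KD (95% interval -0.22 to 0.30). Against *Obox4* KD, *Btg4*, *Cnot6l*, *Cnot7*, *Pabpn1l* and *Zfp36l2* fell, with log2 differences of -0.67, -0.49, -0.51, -0.56 and -0.40, and *Tut7* rose by 0.30 (adjusted p = 0.0373). The adjusted p of *Zfp36l2* was 0.191 without the second double KD library, and that of *Tut7* was 0.330 without the first. In that comparison 13.6% of genes were lower, 15.1% were higher and 7.47% were called.

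If the 2 knockdowns acted independently on the log scale, the double KD difference would equal the sum of the single ones. The interaction term, the departure from that sum, was -0.39 for *Btg4* (95% interval -0.56 to -0.23, adjusted p = 0.0135), so that *Btg4* lay lower in double KD than the single KDs add up to. Without the first double KD library its adjusted p was 0.106, and without the first scramble library 0.0878. *Btg4* was the single member that passed, where 1.47% of genes passed in that direction and 0.256% were called. The interaction of *Cnot6l* was -0.07 (95% interval -0.25 to 0.11) and that of *Cnot7* was -0.24 (-0.44 to -0.04, adjusted p = 0.206). The single KD groups carried 20 µM of ASO and the scramble and double KD groups 40 µM, so dose and target cannot be told apart in this term. The *Obox4* copies other than *Obox4-ps35* were also low in *Dux* KD (3.01 to 5.00 CPM), so that group did not differ from scramble in *Duxf3* alone.

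**Figure D2:**
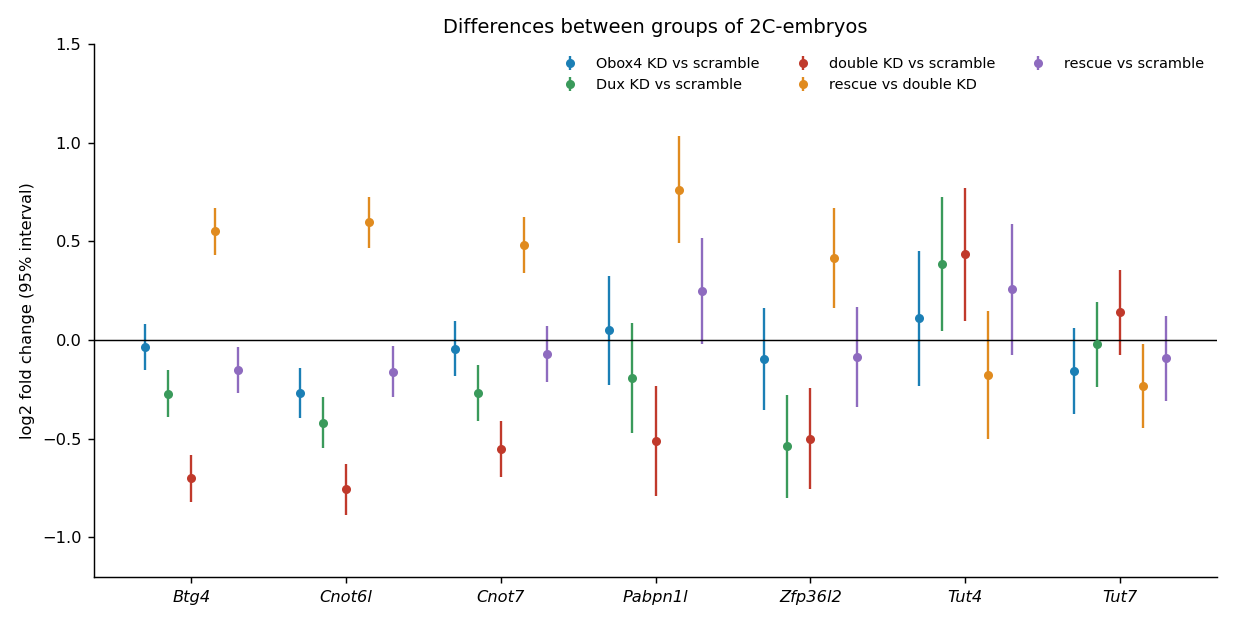
Log2 difference of each member (points, with 95% intervals) in 5 comparisons of 2C-embryos, 2 libraries a group. The 5 members that fell in double KD lie above 0 in rescue against double KD, and all rescue against scramble differences lie between -0.16 and 0.26.

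*Obox4* mRNA given with both ASOs was accompanied by higher levels of the same 5 members. In rescue against double KD, *Btg4* rose by 0.55 on the log2 scale (95% interval 0.43 to 0.67, adjusted p = 2.22e-06), *Cnot6l* by 0.60 (adjusted p = 2.34e-06) and *Cnot7* by 0.48 (adjusted p = 4.58e-05). *Pabpn1l* rose by 0.76 (adjusted p = 0.000267), a 1.70-fold difference, and *Zfp36l2* by 0.41 (adjusted p = 0.0153, but 0.211 without the second double KD library). This makes 5 of 7 members, where 13.9% of genes were higher by this threshold and 4.37% were called. The same 2 double KD libraries enter this comparison and the one with scramble, so the differences are not independent of each other. Against scramble no member passed in rescue, where 2.67% of genes were called and 1232 were higher and 1255 lower at an adjusted p of at most 0.05: the log2 difference was -0.15 for *Btg4* (95% interval -0.27 to -0.03, adjusted p = 0.0957), -0.16 for *Cnot6l* (-0.29 to -0.03, adjusted p = 0.105), -0.07 for *Cnot7* (-0.21 to 0.07) and 0.25 for *Pabpn1l* (-0.02 to 0.52). In these rescue libraries the *Obox4* copies other than *Obox4-ps35* summed to 2.83 to 3.40 CPM, a sum that need not include the codon-optimized mRNA, and *Duxf3* stood at 5.78 to 8.16 CPM against 2.92 to 3.86 CPM in double KD.

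Transcripts stored by the oocyte were lower in double KD and higher again in rescue. A list of oocyte genes summed to 21800 to 23300 CPM with scramble ASO, 20500 to 21800 in *Obox4* KD, 15300 to 18100 in *Dux* KD, 10300 to 11100 in double KD and 20100 to 20200 in rescue. Of the 19 tested, 14 fell and 0 rose in double KD (median log2 difference -0.519), with *Nobox*, an oocyte transcription factor (-4.04, adjusted p = 4.49e-11), and *Zbed3* (-1.14, adjusted p = 1.93e-09) called. In rescue against double KD 16 rose and 0 fell (median 0.585), with *Nobox* (1.80, adjusted p = 9.11e-07) and *Ooep*, a component of the egg's subcortical complex (1.03, adjusted p = 2.07e-06), called. Of all genes tested, 17.6% were lower in double KD, and 13.9% were higher in rescue against double KD. Transcripts of the 2C stage, a list that includes *Duxf3*, the target of the *Dux* ASO, fell as well but did not come back in the same way. In double KD 9 of 10 fell (median -1.56). Their list summed to 1160 to 1260 CPM with scramble ASO, 418 to 455 in double KD and 612 to 782 in rescue. The part of these shifts in the members' values was not tested. In these pools of 30 embryos, a shift in every embryo and a larger shift in some of them cannot be told apart. Cumulus cell markers summed to 10.3 to 10.6 CPM with scramble ASO and 6.10 to 6.43 CPM in double KD, and markers of fibroblasts (2.64 to 4.93 CPM), blood (1.57 to 3.54 CPM) and sperm (1.34 to 3.41 CPM) were low in every 2C library.

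The wider decay machinery moved in both directions, and its counts are to be read against the 17.6% of all genes that fell and the 19.4% that rose. In double KD, 8 of 18 tested CCR4-NOT and deadenylase genes fell and 3 rose (median log2 difference -0.169). The called genes were *Cnot11*, a CCR4-NOT subunit (-1.24, adjusted p = 1.14e-06), and *Tob1*, a relative of *Btg4* (-1.08, adjusted p = 2.32e-06). Of 9 genes for poly(A) binding and tail extension 3 fell and 2 rose. Of 20 mRNA-binding adaptors 5 fell and 2 rose, with *Ago2*, the slicing Argonaute, called higher (1.61, adjusted p = 1.22e-09). Of 15 genes for decapping and exonucleolytic decay 6 fell and 4 rose, with the decapping enhancer *Edc3* called higher (2.08, adjusted p = 6.27e-05) and *Dis3l2*, a nuclease for uridylated RNA, called lower (-1.08, adjusted p = 6.43e-06). In rescue against double KD, 8 CCR4-NOT genes rose and 2 fell, and *Edc3* was called lower (-1.81, adjusted p = 0.000172). Of the 23085 genes tested there, 3213 were higher and 3307 lower at an adjusted p of at most 0.05.

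Among 10 close relatives of the members, 1 rose and 1 fell in double KD, no more than the shares over all genes. The relatives of the deadenylases did not pass: the log2 difference was -0.15 for *Cnot6* (adjusted p = 0.155) and 0.16 for *Cnot8* (adjusted p = 0.0711). *Pabpn1*, the somatic relative of *Pabpn1l*, differed by -0.19 (adjusted p = 0.209), and *Zfp36l1* by -0.34 (adjusted p = 0.552). *Btg2* rose by 0.59 (adjusted p = 0.00771). The relative that fell was *Tob1*, called lower and counted above with the CCR4-NOT and deadenylase genes too.

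Over the 10 2C libraries, the genes whose log2 CPM followed each member best were sought among 7741 genes. Genes with clone names (Gm, Rik or accession symbols) were passed over. *Btg4* was followed most closely by *Zbed3* (Pearson r = 0.994) and *Klhl8* (0.993), *Cnot6l* by *Mad2l1* (0.996) and *Trim75* (0.994), and *Cnot7* by *Zbed3* (0.992) and *Med15* (0.991). *Pabpn1l* was followed by *Naa30* (0.981) and *Ppp2r1a* (0.9749), *Zfp36l2* by *Nckap1* (0.951) and *Cep85l* (0.941), *Tut4* by *Zfp42* (0.914) and *Lats1* (0.890), and *Tut7* by *Nid2* (0.967) and *Hic2* (0.952). Between members, r was 0.938 for *Btg4* and *Cnot6l*, 0.950 for *Cnot6l* and *Cnot7*, -0.677 for *Btg4* and *Tut4* and -0.721 for *Btg4* and *Tut7*. These are descriptions over libraries that share groups, with no test.

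The next comparison set the morula beside the 2C-embryo in scramble libraries, as 2 experiments whose processing cannot be told apart from stage. On the scale of the joint fit, *Btg4* was at 3148 and 3230 CPM in 2C-embryos and 4.94 and 6.05 CPM in morulae. *Cnot6l* was at 1218 and 1237 against 44.7 and 45.4 CPM. *Cnot7* was at 705 and 726 against 73.8 and 74.6 CPM. For these 3 genes the 2 stages were far apart and replicates close together.

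The 4 members that were called lower in the morula were *Btg4* (581-fold, log2 difference -9.18, adjusted p = 9.04e-05), *Cnot6l* (27.3-fold, adjusted p = 1.52e-06), *Cnot7* (9.64-fold, adjusted p = 2.02e-06) and *Pabpn1l* (20.7-fold, adjusted p = 0.00016). *Pabpn1l* stood at 11.6 and 11.4 CPM in 2C-embryos and at 0.804 and 0.286 CPM in morulae. *Tut4* was called higher, at 17.2 and 11.9 CPM in 2C-embryos and 70.1 and 76.0 CPM in morulae (5.00-fold, adjusted p = 5.92e-05), and *Tut7* rose from 47.1 and 40.9 to 78.3 and 78.0 CPM (1.78-fold, adjusted p = 0.0025). *Zfp36l2* was at 38.8 and 31.8 against 45.4 and 52.5 CPM and did not pass (log2 difference 0.47, adjusted p = 0.0505). So 5 of 7 members were called, where 43.4% of 25918 genes were, with 31.7% lower and 28.9% higher at an adjusted p of at most 0.05. The median of the 7 was -3.27, beside -0.209 over all genes.

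By the morula the order of the members per kilobase had turned. *Zfp36l2* (12.3 to 14.3 CPM per kb) and *Cnot7* (12.1 to 12.3) stood at the top with adjoining ranges, *Tut4* (7.73 to 8.41) and *Tut7* (5.09 to 5.10) came next, and *Cnot6l* (4.16 to 4.23), *Btg4* (1.85 to 2.27) and *Pabpn1l* (0.23 to 0.646) followed without overlap. The oocyte list was called lower throughout, with 19 of 19 tested genes (median -4.04). Relatives of the members were called in both directions: *Zfp36l1* (3.09, adjusted p = 0.000856) and *Btg1* (2.07, adjusted p = 4.36e-05) higher, *Tob2* (-3.76, adjusted p = 2.16e-05), *Pabpn1* (-2.46, adjusted p = 6.82e-06) and *Tob1* (-1.92, adjusted p = 0.00037) lower. Of CCR4-NOT and deadenylase genes 4 were called higher and 6 lower.

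**Figure D3:**
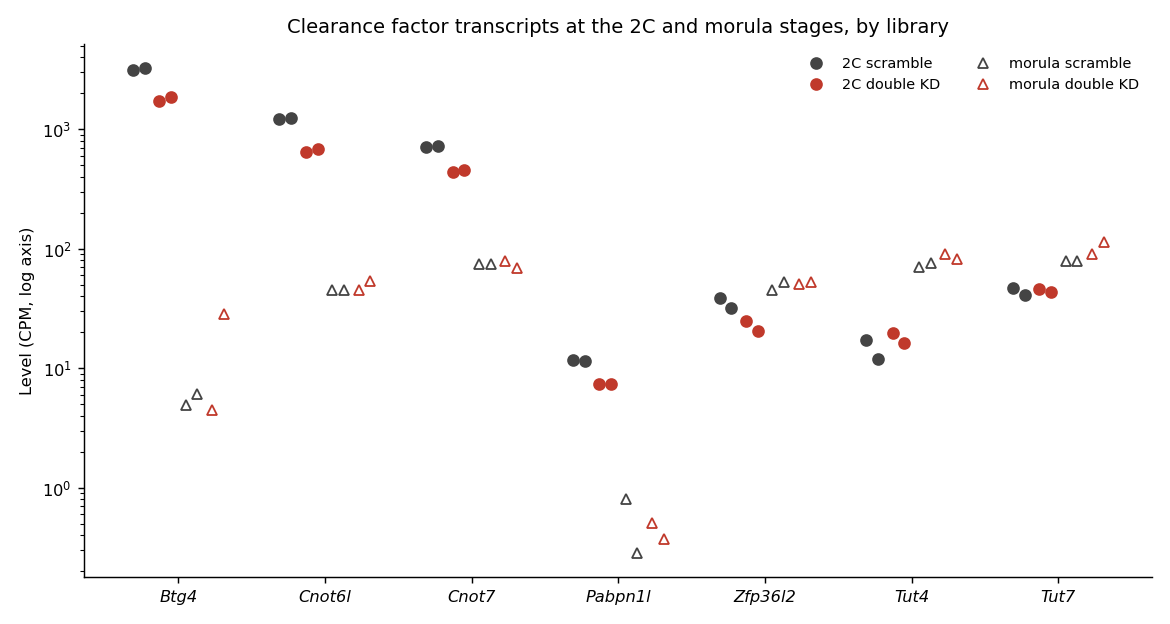
CPM (log axis) of each member in the libraries of scramble and double KD embryos at the 2C and morula stages, scaled in 1 joint fit; points are libraries. The second double KD morula library lies at 28.1 CPM for Btg4, above the other 3 morula libraries at 4.46 to 6.05 CPM.

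Double KD against scramble within the morula experiment was then examined. In the study, most double KD embryos degenerated or arrested before that stage, and a minority took on a morula-like form. The double KD morula libraries therefore describe embryos that had come that far. No member passed, and 0% of 22142 genes were called by edgeR; 3941 genes had an unadjusted p under 0.05, and DESeq2 called 717. That count of 0 depended on the libraries: with 1 library left out, 54 (without the second scramble library) to 5790 genes (without the first double KD library) were called. *Btg4* was at 4.73 and 5.81 CPM with scramble ASO and 4.30 and 27.7 CPM in double KD, so that the 2 double KD libraries lay on either side of scramble. The log2 difference of 1.60 (95% interval -0.41 to 3.61, adjusted p = 0.352) became -0.29 (adjusted p = 0.525) without the second double KD library and 2.31 (adjusted p = 2.71e-07) without the first. In each of these fits 1 double KD library stands against 2 scramble libraries, so the spread comes from scramble alone and the p-values describe single libraries, not the knockdown. That second library also held more of the oocyte list (366 CPM against 147 to 203 CPM), of two-cell transcripts (532 against 181 to 245 CPM) and of *Duxf3* (6.00 against 0.0915 to 0.285 CPM), and less of the pluripotency list (498 against 1040 to 1370 CPM).

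The other 6 members differed less between the morula groups. *Cnot6l* was at 42.9 and 43.6 CPM with scramble ASO and 43.7 and 53.1 CPM in double KD (log2 difference 0.16, 95% interval -0.31 to 0.64), and *Cnot7* at 70.7 and 71.7 against 76.4 and 68.1 CPM (0.02, -0.40 to 0.44). *Tut4* was at 67.1 and 73.0 against 86.7 and 80.7 CPM, and *Tut7* at 75.1 and 75.0 against 87.2 and 111 CPM, higher in both double KD libraries without passing (adjusted p = 0.439 and 0.322). *Zfp36l2* was at 43.5 and 50.4 against 48.6 and 51.3 CPM, and *Pabpn1l* at 0.771 and 0.275 against 0.484 and 0.368 CPM, which overlapped in both cases.

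The double KD difference was compared between the stages by an interaction term, which cannot tell stage from the selection of surviving double KD embryos. For *Cnot6l* it was higher in the morula by 1.03 on the log2 scale (95% interval 0.63 to 1.42, adjusted p = 0.0256), where 3.62% of genes passed in that direction and 0.0193% were called. It was 0.86 (adjusted p = 4.22e-05) without the second double KD morula library, and the adjusted p was 0.210 without the first 2C double KD library. *Cnot7* differed by 0.68 (adjusted p = 0.0521) and *Btg4* by 2.4 (95% interval 0.24 to 4.56, adjusted p = 0.163).

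In single blastomeres that all lacked *Dux*, the comparison was between *Obox4* genotypes. No member passed between the libraries labelled *Obox4* KO and WT, nor between Het and WT. Of 19182 genes, 0% were called in either comparison by edgeR; 1388 genes (KO) and 532 genes (Het) had an unadjusted p under 0.05, and DESeq2 called 467 and 105. With 1 library left out edgeR called 28 to 320 genes for KO, most without the first KO library, and 3 to 28 for Het. *Duxf3* had 0 counts in all 6 libraries.

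*Btg4* was at 2123 and 2177 CPM in WT, 1369 and 1704 CPM in Het, and 2196 and 2070 CPM in the libraries labelled KO. Both Het libraries were below the other 4, and KO and WT overlapped, with a log2 difference of -0.01 (95% interval -0.49 to 0.47). *Cnot6l* was at 1041 and 897 CPM in WT, 833 and 597 CPM in Het, and 1143 and 1364 CPM in KO, lowest in Het and highest in KO without passing (KO against WT 0.37, 95% interval -0.18 to 0.92). *Cnot7* was at 561 and 475 CPM in WT, 280 and 315 CPM in Het, and 441 and 614 CPM in KO. The Het libraries were lowest for *Cnot7* too (log2 difference to WT -0.80, unadjusted p = 0.0116 from edgeR, adjusted p = 1.0). The oocyte list summed to 15600 to 16700 CPM in WT, 8370 to 12700 CPM in Het and 20900 to 28000 CPM in KO, the same order as *Cnot6l*, and its part in these values was not tested.

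The weaker members varied widely between single cells. *Zfp36l2* was at 16.6 and 26.2 CPM in WT, 116 and 9.31 CPM in Het, and 20.2 and 52.2 CPM in KO, so the 2 Het cells were the highest and the lowest. *Tut4* was at 41.9 and 28.5 CPM in WT, 18.1 and 7.63 CPM in Het, and 18.5 and 22.9 CPM in KO, highest in both WT cells (adjusted p = 1.0 and 0.809). *Tut7* was at 70.2 and 36.8 CPM in WT, 53.8 and 41.1 CPM in Het, and 34.1 and 46.0 CPM in KO, which overlapped, and *Pabpn1l* ranged from 0.762 to 12.2 CPM. Per kilobase *Btg4* (831 to 852 CPM per kb), *Cnot6l* (87.0 to 101) and *Cnot7* (81.6 to 96.5) led in WT, followed by *Zfp36l2* (4.70 to 7.42), *Tut4* (3.29 to 4.82) and *Tut7* (2.50 to 4.77), whose ranges overlapped in turn. *Pabpn1l* had the lowest mean (0.639 to 3.66), unlike in 2C-embryos, where it overlapped *Zfp36l2*.

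In mESCs, *Btg4* (0 to 0.134 CPM) and *Pabpn1l* (0 to 0.212 CPM) were too low for a test in the induction series, and the other 5 members were measured. *Obox4* copies together rose from 0.385 to 0.611 CPM at 0 h to 5.00 to 7.11 CPM at 12 h and 7.08 to 8.51 CPM at 48 h. Reads shared between copies are left out of these sums, which need not give the full level of the transgene. No member passed at 12 h, where 0.757% of 18625 genes were called and 417 were higher and 193 lower at an adjusted p of at most 0.05. None passed at 48 h either, where 3.95% were called and 1558 were higher and 708 lower.

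*Cnot7*, the highest member per kilobase at 0 h, stood at 83.3, 80.1 and 77.0 CPM at 0 h, 87.7, 89.8 and 86.8 CPM at 12 h, and 98.0, 83.5 and 86.6 CPM at 48 h. Each induced library lay above all 3 at 0 h, but the log2 differences of 0.14 (95% interval -0.06 to 0.34) and 0.16 (-0.04 to 0.36) did not pass (adjusted p = 0.571 and 0.337). *Tut4* was at 69.4, 90.6 and 74.8 CPM at 0 h, 120, 57.3 and 54.9 CPM at 12 h, and 71.3, 112 and 120 CPM at 48 h. The 12 h libraries of *Tut4* spanned the range of all 9, and those of *Cnot6l* (35.2, 18.0 and 18.0 CPM) and *Zfp36l2* (17.8, 10.9 and 8.77 CPM) were split in the same way, with the first library high. At 48 h *Tut4* was low in the first library, which follows the split of libraries across time points given above. No member passed with any 1 library left out. *Tut7* stayed between 55.03 and 71.8 CPM in all 9 libraries.

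In mESCs given PlaB, *Zfp36l2* was the member with the largest differences. It was at 19.6, 16.3 and 17.5 CPM in WT, 71.1, 66.5 and 63.2 CPM in *Obox4* KO, 40.2, 38.8 and 37.3 CPM in *Dux* KO, and 51.7, 76.7 and 57.4 CPM in double KO. All 9 libraries of the knockouts lay above WT, *Dux* KO lay between WT and the other genotypes, and double KO overlapped *Obox4* KO. *Zfp36l2* was called higher in *Obox4* KO (3.77-fold, log2 difference 1.91, 95% interval 1.61 to 2.22, adjusted p = 6.38e-06), in *Dux* KO (2.18-fold, adjusted p = 0.000138) and in double KO (3.49-fold, adjusted p = 1.65e-06). Without the third *Obox4* KO library the first was 1.95, and without the third double KO library the last was 1.84. The share of the 22328 genes called was 8.88% in *Obox4* KO, 6.32% in *Dux* KO and 18.0% in double KO.

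The difference in double KO was smaller than the sum of the 2 single ones. By the study's methods, double KO was made from *Obox4* KO lines and *Dux* KO from unedited mESCs, each by picking single-cell clones. Genotype and clone therefore cannot be told apart in any of the PlaB comparisons. *Dux* KO cells also held little RNA of the *Obox4* copies other than *Obox4-ps35* (0.0433 to 0.0824 CPM). The interaction term of *Zfp36l2* was -1.24 (95% interval -1.67 to -0.80, adjusted p = 0.00517), where 3.40% of genes passed in that direction and 1.25% were called, and it lay between -1.42 and -1.12 with any 1 library left out. The adjusted p was then between 0.000662 and 0.0226, and the 2-fold call at 0.01 was lost in 9 of these 12 fits and with the replicate number as a block (adjusted p = 0.0108). *Zfp36*, another member of the same family, also rose in *Obox4* KO (1.90, adjusted p = 1.03e-05) and double KO (1.72, adjusted p = 4.17e-06), and was 0.40 in *Dux* KO (adjusted p = 0.0965).

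**Figure D4:**
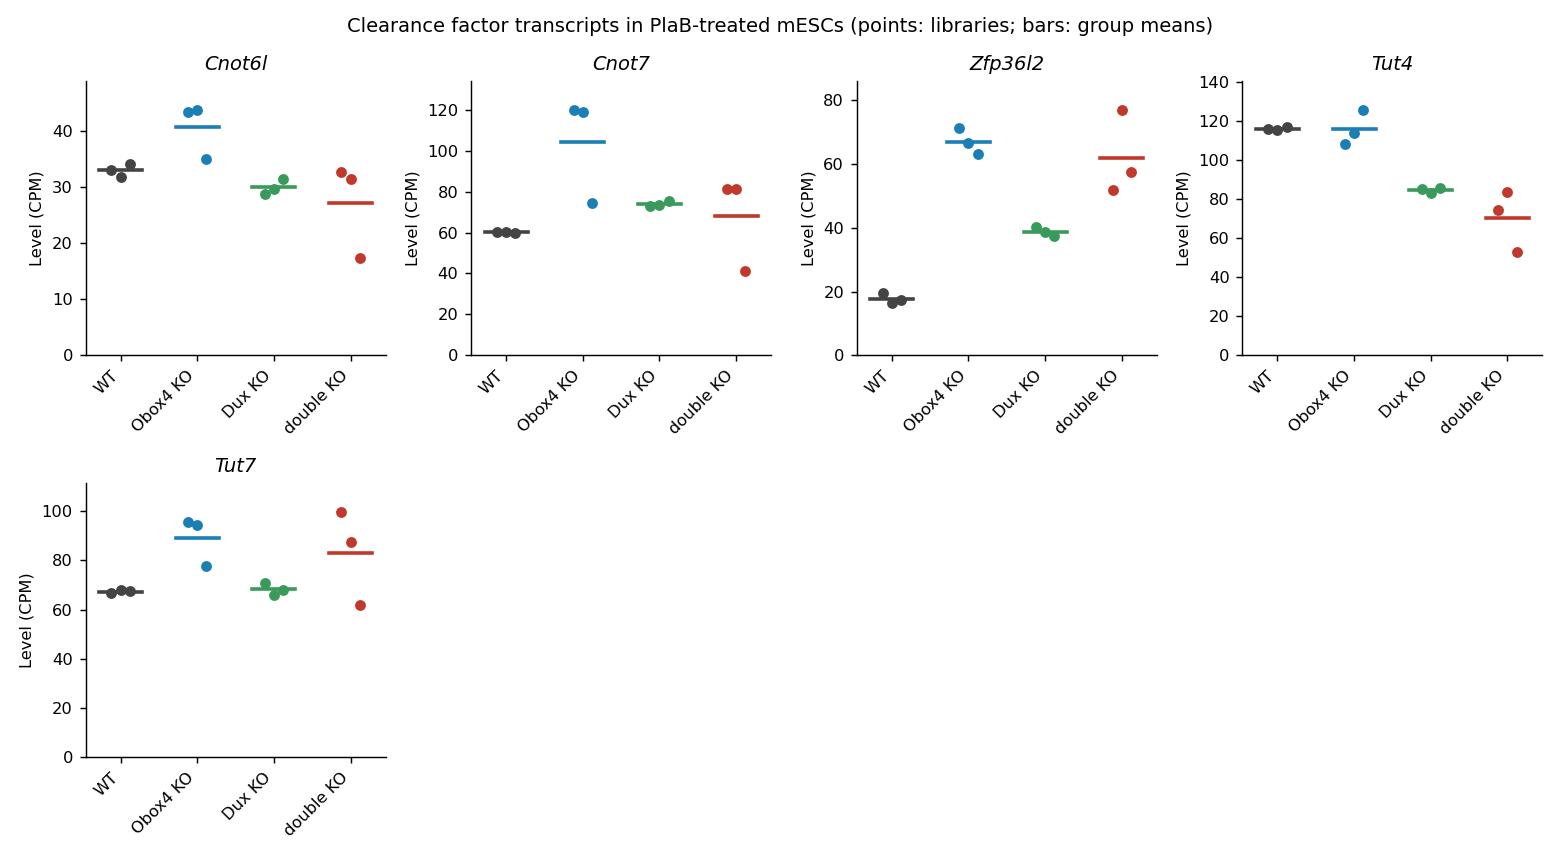
CPM (linear axes) of the 5 members expressed in mESCs given PlaB, by genotype; points are libraries and bars are group means (n = 3). Zfp36l2 lies between 16.3 and 19.6 CPM in WT and at 37.3 CPM or more in every knockout library, and Tut4 is below WT in all Dux KO and double KO libraries.

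*Tut4* was at 116, 115 and 117 CPM in WT, 108, 114 and 126 CPM in *Obox4* KO, 85.3, 83.2 and 85.5 CPM in *Dux* KO, and 74.5, 83.7 and 53.0 CPM in double KO. *Obox4* KO overlapped WT, and all 6 libraries without *Dux* lay below both. *Tut4* fell in double KO (log2 difference -0.72, adjusted p = 0.00131, and -0.57 with adjusted p = 0.000215 without the third double KO library). In *Dux* KO it fell by 0.46 (adjusted p = 0.039), and the adjusted p was 0.0902 to 0.132 with any 1 WT or *Dux* KO library left out and 0.282 with library totals in place of TMM scaling. *Tut4* was the single member that fell in these 2 comparisons, where 9.17% (*Dux* KO) and 20.5% (double KO) of genes were lower at an adjusted p of at most 0.05.

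*Cnot7* was at 60.3, 60.5 and 59.6 CPM in WT, 120, 119 and 74.6 CPM in *Obox4* KO, 73.0, 73.4 and 75.6 CPM in *Dux* KO, and 81.1, 81.2 and 41.4 CPM in double KO. Library 3 of *Obox4* KO and library 3 of double KO, which stood apart, were far below their partners. *Cnot7* rose in *Obox4* KO (log2 difference 0.80, adjusted p = 0.0214, and 0.99 with adjusted p = 0.0027 without the third library), though the adjusted p was 0.0819 without the second one. *Zfp36l2* and *Cnot7* thus were the 2 members that rose in *Obox4* KO, and *Zfp36l2* the single one in *Dux* KO and double KO, where 14.2%, 7.40% and 20.8% of genes were higher by this threshold.

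*Tut7* was at 66.7, 67.8 and 67.5 CPM in WT and 95.5, 94.4 and 77.7 CPM in *Obox4* KO, higher in all 3 without passing (log2 difference 0.41, adjusted p = 0.0619). *Cnot6l* was at 33.1, 31.8 and 34.2 CPM in WT and 43.5, 43.7 and 35.0 CPM in *Obox4* KO (0.30, adjusted p = 0.275). *Btg4* (0 to 0.136 CPM) was too low for a test and *Pabpn1l* (0.0511 to 0.384 CPM) did not pass in any comparison. The *Obox4* KO cells also differed in their markers: the trophectoderm list summed to 626 to 629 CPM in the first 2 and to 2000 CPM in the third *Obox4* KO library, against 200 to 209 CPM in WT, 490 to 503 in *Dux* KO and 3150 to 3890 in double KO. The pluripotency list summed to 3330 to 3400 CPM in WT, 1720 to 2260 in *Obox4* KO, 2720 to 2740 in *Dux* KO and 1440 to 1580 in double KO. The part of these shifts in the members' values was not tested.

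CUT&RUN, which maps a protein or histone mark by antibody-guided cleavage of chromatin, gave peaks in mESCs. A member was counted where a peak lay within 3000 bases of its gene start in at least 2 of 3 lists. Induced FLAG-tagged OBOX4 had a peak at 3 of 7 members (*Zfp36l2*, *Tut4* and *Tut7*), where 17.2% of all genes had one, and FLAG-tagged DUX, with 1 list, had one at 0 of 7, where 0.955% of genes had one. Among the close relatives, *Btg1*, *Btg3*, *Tob1*, *Tob2*, *Cnot6*, *Cnot8*, *Pabpn1*, *Zfp36* and *Zfp36l1* had an OBOX4 peak by this count, and *Btg2* had none. An OBOX4 peak was thus not particular to the members.

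At *Zfp36l2* the OBOX4 summits lay at -191, -193 and -161 bases from the start (negative is upstream) in the 3 lists, with a -log10 q of 11.4, 10.1 and 8.32 and a fold enrichment of 4.26, 4.64 and 3.87. At *Tut7* they lay at -347 and -258 bases in 2 lists (-log10 q of 6.08 and 6.20, fold enrichment of 4.63 and 4.77), in the peak whose GGATTA is printed above. At *Tut4* they lay at 626 and 635 bases from the start of the gene row in 2 lists (-log10 q of 3.00 and 3.29, fold enrichment of 3.25 and 3.70), in an exon. *Zfp36l2* had the highest -log10 q, though not the highest fold enrichment, and was the single member with a peak in all 3 lists.

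H3K4me3, a mark of active starts, was present in untreated WT cells at *Cnot6l*, *Cnot7*, *Zfp36l2*, *Tut4* and *Tut7*, 5 of 7 members against 40.5% of genes, and at the same 5 in the other 3 conditions except *Cnot7* in WT cells with PlaB, with a peak in 1 of 3 lists. The strong *Cnot7* peaks had their summits 3533 to 4779 bases from the start of the gene row, and with a window of 1000 bases *Cnot7* was not counted in any condition. H3K27ac, a mark of active promoters and enhancers, was at 4 of 7 in WT cells with and without PlaB (22.9% of genes untreated, 21.1% with PlaB), at 3 in untreated *Obox4* KO cells (23.6%) and at 2, *Zfp36l2* and *Tut7*, in *Obox4* KO cells with PlaB (21.9%). At *Cnot6l* and *Tut4* the last condition still had a peak in 1 of 3 lists. With a -log10 q of at least 10 the order of the PlaB conditions turned. There was 1 member in WT (*Tut7*), where 11% of genes had a peak. In *Obox4* KO there were 2 (*Zfp36l2* and *Tut7*), where 11.5% of genes had one. No difference between genotypes is therefore read from these counts. The Polycomb mark H3K27me3 was at *Pabpn1l* in all 3 lists of all 4 conditions and at no other member by this count, where 20.9% to 24.4% of genes had it. The *Pabpn1l* peaks had a -log10 q of 1.43 to 5.11. With a -log10 q of at least 10 in 2 lists, 0.0919% to 2.82% of genes had H3K27me3. No member did in any condition, a count that says little beside such shares.

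**Figure D5:**
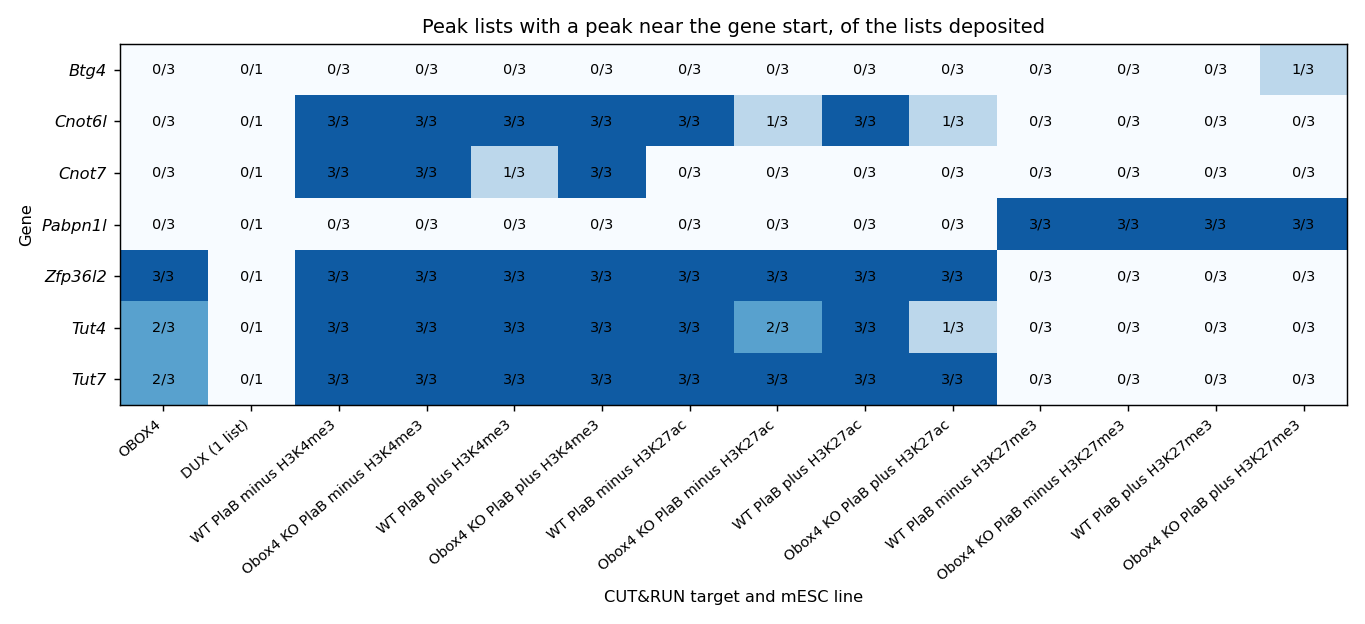
Number of peak lists with a peak within 3000 bases of each member's gene start (rows are members, columns are the CUT&RUN target and condition in mESCs), out of the lists deposited. OBOX4 peaks are at Zfp36l2, Tut4 and Tut7, and H3K27me3 is at Pabpn1l in every condition.

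On GRCm38 the gene rows lie on chr9 51060901 to 51119875 (+ strand) for *Btg4* (ENSMUSG00000032056), chr5 96070333 to 96164171 (- strand) for *Cnot6l* (ENSMUSG00000034724), chr8 40492540 to 40515847 (- strand) for *Cnot7* (ENSMUSG00000031601) and chr8 122619471 to 122622739 (- strand) for *Pabpn1l* (ENSMUSG00000069867). *Zfp36l2* (ENSMUSG00000045817) lies on chr17 84183931 to 84187947 (- strand), *Tut4* (ENSMUSG00000034610) on chr4 108459426 to 108559421 (+ strand) and *Tut7* (ENSMUSG00000035248) on chr13 59771561 to 59823147 (- strand). The row of *Btg4* starts 55100 bases upstream of its RefSeq start. At the RefSeq start of *Btg4*, H3K27me3 had a peak in 2 of 3 lists of untreated *Obox4* KO cells and OBOX4 had none.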

How the data were processed

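RNA-seq values are gene counts that the authors deposited per library, with no normalization; the submitters' notes name fastp 0.23.2, STAR 2.7.9a, featureCounts 2.0.1 and GRCm38.p6. Multi-mapping reads were discarded, except in the deposited blastomere table, whose estimated counts split them into fractions (21.98% of values above 0 were not whole) and were rounded. Tables of genes with repeats, deposited with split reads and so expected counts, served as an alternative. The deposited peak lists (Bowtie2 2.4.1, MACS3 3.0.0a6) give positions (other), fold enrichment (a ratio) and −log10 q. Histone and OBOX4 lists were called per sample.

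CPM values use TMM factors. Each experiment was fitted with all its groups, after filterByExpr, by edgeR 4.0.16 (quasi-likelihood, R 4.3.3); p-values were adjusted over all genes tested. The stage comparison joined both embryo tables. DESeq2 1.42.0, other scalings, no filter, the replicate block, fits to 2 groups and leaving out each library were alternatives. The fit was tested on simulated data. Counts limit precision: 3 counts served as the floor. No 2 libraries had identical values.

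The members and gene lists were chosen with earlier results of these data known. Named genes were the 7 members, their relatives, and up to 4 called genes per list and comparison by smallest p. The 2 genes most like each member were also named, among those with a mean of at least 10 CPM and no clone name.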

Additional observations from a re-analysis of the deposited data

Results flagged for a closer look

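Differences between effects were singled out because a test of the difference itself passed an adjusted p of at most 0.05 in edgeR. In 2C-embryos the interaction of *Obox4* KD and *Dux* KD was -0.3939 for *Btg4* on the log2 scale, the departure of the double KD difference from the sum of the single ones. The double KD difference of *Cnot6l* was 1.0262 higher on the log2 scale in the morula than in the 2C-embryo. The double KD morulae were a surviving minority, as given above. In mESCs given PlaB, the interaction of *Obox4* KO and *Dux* KO was -1.2361 for *Zfp36l2*. Groups of 2 or 3 libraries were not given a formal test for a library far from its group; the libraries that stood apart are named with the results above.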

How the results depend on the processing

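No member difference at an adjusted p of at most 0.05 changed direction under any alternative run; *Tut7* in *Dux* KD, which did not pass, went from -0.02 to 0.16 with library totals. Of 40 differences at an adjusted p of at most 0.05, 396 of 452 alternative values stayed past that threshold and 56 did not; of 85 above it, 26 of 1018 values passed. With an adjusted p of at most 0.05 and no minimum fold, the members passing were 1 in *Obox4* KD, 4 in *Dux* KD, 6 in double KD, 3 in double KD against *Dux* KD, 6 in double KD against *Obox4* KD, 5 in rescue against double KD, 1 in the 2C interaction, 1 in the morula minus 2C difference, and 2 each in PlaB *Obox4* KO, *Dux* KO and double KO, in place of 0, or of 1 in each PlaB comparison. In the morula, 1 member (*Btg4*) was called with no filter on low counts, and 0 to 1 with a library left out (1 without the first double KD library). In the morula minus 2C difference, 1 was called with no filter (*Btg4*), 1 by DESeq2 (*Cnot6l*) and 0 to 1 with a library left out. In the PlaB interaction, where the full design called 1 (*Zfp36l2*), 0 were called with the replicate block and 0 to 1 with a library left out; the causes were not tested. OBOX4 peaks were at 1 member (*Zfp36l2*) when all 3 lists were needed, where 13.3% of genes had one. With a −log10 q of at least 10 in 2 lists they were at 1 member, where 8.61% of genes had one. Histone marks under that setting are given with the peaks.

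Over all genes, the number called moved by more than 1.5 times in several settings. Without a filter it was 207 against 95 in *Obox4* KD, 236 against 59 in the 2C interaction, 1281 against 0 in the morula, 2547 against 5 in the morula minus 2C difference and 255 against 141 at 12 h of induction. DESeq2 called 128 in the 2C interaction, 717 in the morula, 1757 in the morula minus 2C difference, 467 and 105 in blastomeres (KO and Het, against 0), 253 at 12 h and 1151 against 278 in the PlaB interaction. Fits to the 2 groups alone called 315 against 174 for double KD over *Dux* KD, 296 against 616 for rescue over scramble, and 2501 against 1412 in PlaB *Dux* KO. With 1 library left out, 0 to 7361 genes were called in the morula minus 2C difference, 483 to 715 against 993 in *Dux* KD, 34 to 138 in double KD over *Dux* KD, 8 to 63 in the 2C interaction, 52 to 205 at 12 h and 78 to 2223 in the PlaB interaction. Library totals without TMM, added after seeing the data, moved the median of all genes by 0.2443 in double KD, 0.1797 in *Dux* KD and 0.2982 in morula double KD, and turned the split of higher to lower calls in double KD from 1944 and 729 to 2887 and 441, and in the PlaB interaction from 177 and 101 to 65 and 111.

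Outside the induction series, samples with the same replicate number shared little but the number. Their deviations correlated at -0.0412 to 0.0591 in 2C-embryos, 0.0265 in the morula, -0.0094 to 0.0113 in blastomeres and -0.0137 to 0.1015 in the PlaB series. In the induction series, where libraries split across time points, they correlated at -0.6129 to 0.3801. The replicate block called 82 genes in *Obox4* KD, 37 against 141 at 12 h, 373 against 735 at 48 h, 183 in the PlaB interaction and 0 in the morula minus 2C difference. With 2 libraries a group, calls near the thresholds rest on single libraries, and in mESCs *Btg4* and *Pabpn1l* were at or near 0 counts, where no difference was detectable at this depth.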
